A study of Homo sapiens with 4 samples.

Results

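The aminoacyl-tRNA synthetases, the enzymes that charge each tRNA with its amino acid, were examined in human Caco-2 cells stimulated with IFNγ. The set was a list of 38 gene symbols, namely the tryptophanyl-tRNA synthetase WARS1, 18 other cytosolic synthetases, 3 scaffold proteins of the multisynthetase complex and 16 mitochondrial synthetases. The members were found by symbol in a table of 37515 genes. The rule for membership uses symbols and no measured value, but the list was drawn up with earlier results of these data known. All 38 had a row, and all 38 were among the 14820 genes that passed the filter on low counts.

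Caco-2 cells derive from a human colorectal carcinoma, and the line forms a polarised layer like that of intestinal epithelium. The cells were grown on transwells, with IFNγ given on the basal side. RNA-seq libraries came from 2 samples of unstimulated cells at 0 h and 2 samples of cells given 60 ng/ml IFNγ for 3 h, all of the wild-type line with no genetic change named. The comparison therefore holds both the cytokine and the 3 h that passed. The labels do not say whether the 2 samples of a condition were separate cultures, so p-values measure the spread between these samples, which may be technical.

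Synthetases of the cytosol and of the mitochondria are mostly products of separate nuclear genes, a "1" in the symbol usually marking the cytosolic enzyme and a "2" the mitochondrial one. Several cytosolic synthetases sit in the multisynthetase complex, held together by AIMP1, AIMP2 and EEF1E1, whereas WARS1 is not part of that complex. WARS1 is a long-known IFNγ-induced gene, and IFNγ also induces IDO1, an enzyme that degrades tryptophan, in many human cells. ATF4, a factor of the amino acid starvation response, is known to raise many cytosolic synthetase genes.

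The libraries held 9990952 and 7171455 counts without stimulation and 10365346 and 7529914 with IFNγ, so 1 CPM, the unit of counts scaled to the library total, was 7.14 to 10.3 counts. The 38 members together took 0.325% to 0.362% of the counts in a library. Of 14 intestinal epithelial markers, 13 were above 1 CPM, with a summed level of 11215 to 12321 CPM without stimulation and 12733 to 13316 CPM with IFNγ. Of 10 leukocyte markers, 9 had a row, 3 were above 1 CPM and none of the 9 was at 0 throughout, and their summed level was 13.9 to 15.3 CPM without stimulation and 18.8 to 22.2 CPM with IFNγ. Fibroblast markers summed to 115 to 211 and 149 to 187 CPM with 5 of 8 above 1 CPM and THY1 at 0, and endothelial markers to 1.26 to 1.85 and 1.85 to 2.32 CPM with 4 of 5 in the table, 1 above 1 CPM and KDR and TEK at 0. The part of these markers in the results was not tested. The response to IFNγ was seen in IRF1, an early target of IFNγ, which went from 198 and 144 counts to 12348 and 7949 counts.

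WARS1 and the mitochondrial methionyl-tRNA synthetase MARS2 rose, and no other synthetase did. WARS1 (ENSG00000140105) charges tRNA with tryptophan in the cytosol. It lies on the minus strand at chr14:100800127-100843142 (GRCh37), with 11 exons in its canonical transcript. WARS1 had 366 and 303 counts without stimulation and 1130 and 734 counts with IFNγ. After TMM scaling these were 35.6 and 42.5 CPM, against 110 and 100.2 CPM. Both IFNγ libraries were above both unstimulated ones, with no overlap. The mean rose from 39.0 ± 4.82 to 105 ± 6.90 CPM (SD, n = 2), a fold of 2.69. The log2 fold change was 1.43 with a standard error of 0.14 (edgeR quasi-likelihood test, Benjamini-Hochberg adjusted p = 0.0015). A stricter test, of whether the log2 fold change is above 1, gave an adjusted p of 0.132 (edgeR glmTreat).

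WDR25, on the opposite strand, shares 287 exonic bases with WARS1 in GENCODE, and the handling of strand in counting is not known. Reads of these shared bases cannot be told apart. WDR25 itself had 35 and 30 counts without stimulation and 70 and 52 with IFNγ, far fewer than WARS1.

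MARS2 (ENSG00000247626) charges mitochondrial tRNA with methionine. It is a gene of 1 exon on the plus strand at chr2:198570093-198573119 (GRCh37). MARS2 had 179 and 163 counts without stimulation and 608 and 475 counts with IFNγ. These were 17.4 and 22.8 CPM, against 59.1 and 64.8 CPM. The groups did not overlap here either. The mean rose from 20.1 ± 3.82 to 62.0 ± 4.01 CPM (SD, n = 2), a fold of 3.08. The log2 fold change of 1.63 with a standard error of 0.17 had an adjusted p of 0.00172 (edgeR), and the test against a log2 fold change of 1 gave 0.0759 (glmTreat). The non-coding RNA gene ENSG00000222017, which spans MARS2 without sharing an exon, had 0 or 1 count in every library. The difference between the changes of WARS1 and MARS2 was not tested.

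**Figure D1:**
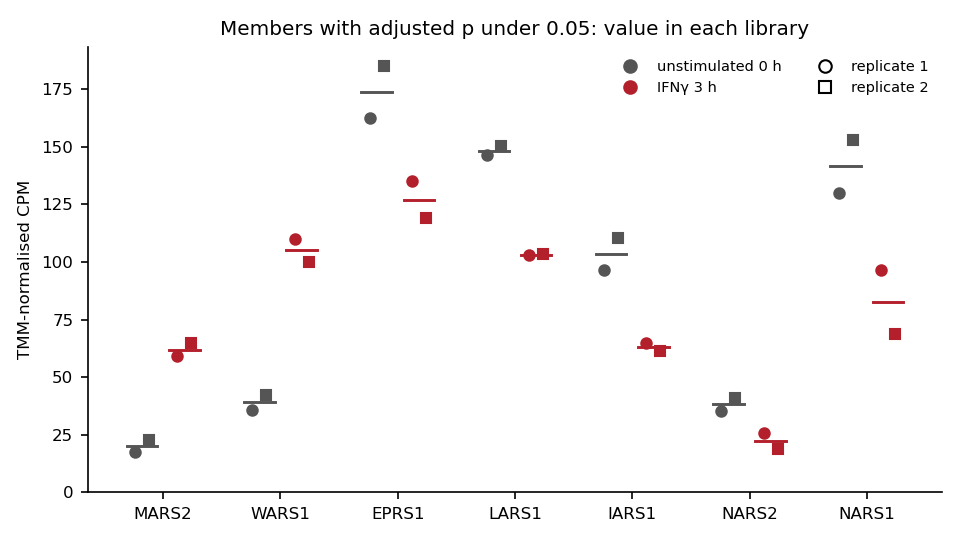
Level of the 7 members with an adjusted p under 0.05 in each library. The vertical axis is CPM after TMM scaling, from 0. Circles are replicate 1, squares replicate 2, and horizontal lines the mean of the 2 libraries of a condition, grey for unstimulated cells at 0 h and red for IFNγ at 3 h. WARS1 and MARS2 are higher in both IFNγ libraries, and EPRS1, LARS1, IARS1, NARS2 and NARS1 are lower in both.

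The sequence before the start sites of these genes was read from RefSeq promoters (GRCh38.p14), which were present for 33 of the 38 members in 45 entries. AARS2, LARS1, VARS1, VARS2 and YARS1 had none. In the 250 bases before each start, 3 motifs were searched on both strands, namely TTCNNNGAA (the GAS element of IFNγ-responsive genes), GAAANNGAA (a repeat bound by IRF factors) and TGATGNAA (an ATF4-C/EBP element). GAS letters were in 6.57% of all 35116 promoters and in 6 of the 45 member promoters, those of WARS1, TARS1, PARS2 and WARS2. The IRF repeat was in 6.88% of all promoters and in 6 of the 45, those of WARS1, GARS1, IARS1, EEF1E1 and EARS2. The ATF4-C/EBP letters were in 3.14% of all promoters and in 4 of the 45, those of AARS1, GARS1, IARS1 and YARS2. The same site of WARS2, and the same one of EARS2, counts under 2 nearby starts. By gene, GAS letters were in 4 of 33 members (12.1%), against 8.09% of all genes with a promoter. The IRF repeat was in 5 of 33 (15.2%, against 8.41%) and the ATF4-C/EBP letters in 4 of 33 (12.1%, against 3.89%).

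WARS1 has 2 start sites in the table, 980 bases apart, and the downstream one held both a GAS and an IRF repeat, with no base in common, beginning 142 and 55 bases before the start. Both motifs occurred together in 241 promoters (0.686%), and WARS1's was the single one among the members. The upstream start of WARS1 and the promoter of MARS2 held none of the 3. In GENCODE, all 250 bases before either WARS1 start lie in annotated WARS1 exons, outside those of the canonical transcript. Within 50 bases of the downstream start 7 annotated WARS1 transcripts begin, and 16 within 50 bases of the upstream one. Windows of 30 bases around matches are shown for WARS1, for WARS2, which holds GAS letters and did not pass the test, and for IARS1, which holds the IRF and ATF4-C/EBP letters and fell. MARS2's 250 bases are shown whole as those of the other gene that rose. Each is read 5′ to 3′ on the strand of its gene, capitals mark the match, and a match on the opposite strand appears as its reverse complement.
WARS1 GAS, chr14:100375470-100375499, minus strand: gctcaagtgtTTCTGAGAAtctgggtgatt
WARS1 IRF repeat, chr14:100375383-100375412, minus strand: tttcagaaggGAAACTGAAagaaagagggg
WARS2 GAS, chr1:119140844-119140873, minus strand: gaaattctccTTCCAGGAAggctgagcaga
IARS1 IRF repeat, chr9:92293873-92293902, minus strand: tcagcgctggTTCGTTTTCcacgtggaggc
IARS1 ATF4-C/EBP, chr9:92293698-92293727, minus strand: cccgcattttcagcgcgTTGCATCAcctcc
MARS2 promoter, chr2:197705119-197705368, plus strand: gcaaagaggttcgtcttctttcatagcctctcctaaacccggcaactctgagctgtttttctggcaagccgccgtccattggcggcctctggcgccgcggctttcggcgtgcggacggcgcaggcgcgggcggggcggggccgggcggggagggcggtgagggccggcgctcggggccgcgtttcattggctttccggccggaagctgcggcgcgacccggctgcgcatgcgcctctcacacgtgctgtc

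These matches are descriptions of letters, not binding sites. The IRF repeat lay before members that rose, fell or did not pass the test. GAS letters lay before WARS1 and members that did not pass. ATF4-C/EBP letters lay before IARS1, which fell, and members that did not pass.

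Across the 38 members, 2 were called higher at an adjusted p under 0.05 and a log2 fold change over 1, where 2.88% of all tested genes were. None was called lower by edgeR, where 4.40% of all tested genes were, nor by DESeq2. An unadjusted p under 0.05 (edgeR) was found for 11 of the 38 members, 9 of them lower. It was found for 5239 of the 14820 tested genes, in either direction. At an adjusted p under 0.05 with any fold, 2 members rose (5.26%, against 9.02% of all tested genes) and 5 fell (13.2%, against 11.0% of all tested genes). The remaining 31 did not pass. The shares of the list that passed were thus not far from those of the whole table. Both IFNγ libraries were above both unstimulated ones for 10 of the 38 members, where 31.6% of all tested genes were. Both were below them for 14 of the 38, where 30.8% of all tested genes were. The median log2 fold change of the 38 was -0.06, beside -0.01 for all tested genes.

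**Figure D2:**
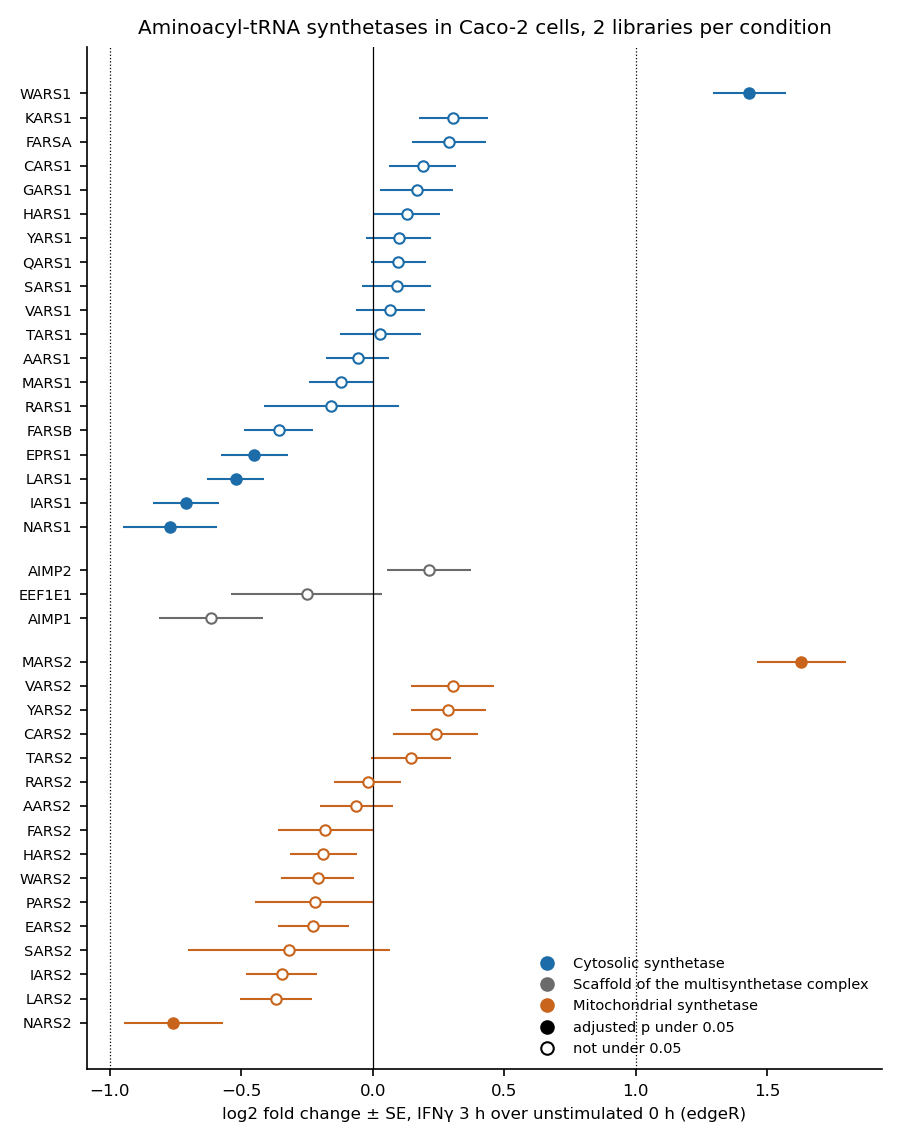
Log2 fold change of all 38 members between IFNγ at 3 h and unstimulated cells at 0 h (horizontal axis, edgeR), with bars of 1 standard error and 2 libraries per condition. Filled points have an adjusted p under 0.05, and dotted lines mark the fold threshold of 1 on the log2 scale. WARS1 at 1.43 and MARS2 at 1.63 stand past the upper line, and the other 36 lie between -0.77 and 0.31.

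The other 18 cytosolic synthetases did not rise with WARS1. None passed the test upward with edgeR without a replicate block, nor at an unadjusted p under 0.05 in that fit or with DESeq2. Of the 18, 4 fell (22.2%, where 11.0% of all tested genes fell) and 14 did not pass. On the log2 scale 10 of the 18 were above 0 and 8 below, with a range of -0.77 to 0.31 and a median of 0.05. The highest of them was KARS1, the lysyl-tRNA synthetase, with 2201 and 1846 counts without stimulation and 2861 and 2243 with IFNγ. Its log2 fold change of 0.31 did not pass (adjusted p = 0.143, edgeR).

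WARS1 was also set against the sum of the 18 in each library, as a measure that does not rest on the scaling of the whole library. WARS1 counts were 1.49% and 1.57% of the summed counts of the 18 other cytosolic synthetases without stimulation, and 4.55% and 4.10% with IFNγ. The groups did not overlap. The relative log2 fold change was 1.50 with a standard error of 0.13 (edgeR over the whole table scaled to this sum, adjusted p = 0.00225). An exact two-sided permutation test over the 4 libraries gave p = 0.333, the smallest that the 6 splits of 2 against 2 can give.

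The same comparison was made with the 16 mitochondrial synthetases. WARS1 counts were 4.96% and 5.31% of their sum without stimulation, and 15.2% and 13.8% with IFNγ, a relative log2 fold change of 1.50 with a standard error of 0.12 (edgeR, adjusted p = 0.00179). The exact permutation p was again 0.333. WARS1 thus changed by nearly the same amount against either sum. The mitochondrial sum includes MARS2, which itself rose. MARS2 was 2.42% and 2.86% of the mitochondrial counts without stimulation and 8.19% and 8.95% with IFNγ. WARS1 was not tested against the mitochondrial synthetases without MARS2.

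Per transcript length, WARS1 was among the lowest cytosolic synthetases before stimulation, at 14.8 ± 1.83 RPKM (CPM divided by the transcript length in kilobases), the 18th of 19 levels with only FARSB, at 13.9 RPKM, below it. KARS1 had the highest level at 119 ± 15.7 RPKM, and the median of the 19 was 36.7 RPKM. With IFNγ the level of WARS1 was 39.8 ± 2.62 RPKM (SD, n = 2), the 10th of 19 and so the median of the group. WARS1 moved from the lower end of the cytosolic synthetases to their middle.

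The cytosolic synthetases that fell were NARS1, IARS1, LARS1 and EPRS1, which charge asparagine, isoleucine, leucine, and glutamate and proline. NARS1 (chr18:55267888-55289445, minus strand, GRCh37) had 1335 and 1093 counts without stimulation and 992 and 504 with IFNγ. Its 2 IFNγ libraries, at 96.5 and 68.8 CPM, lay apart from each other but both below the unstimulated 130 and 153 CPM. Its log2 fold change was -0.77 with a standard error of 0.18 (adjusted p = 0.0235, edgeR).

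IARS1 (chr9:94972489-95056136, minus strand) had 991 and 789 counts without stimulation and 665 and 451 with IFNγ, or 96.5 and 111 CPM against 64.7 and 61.5 CPM. The groups were well apart, and the log2 fold change was -0.71 with a standard error of 0.13 (adjusted p = 0.0091, edgeR). LARS1 (chr5:145490129-145562259, minus strand) had 1502 and 1073 counts without stimulation and 1058 and 759 with IFNγ. Its libraries agreed closely within each condition, at 146 and 150.3 CPM against 103 and 104 CPM, with a log2 fold change of -0.52 and a standard error of 0.11 (adjusted p = 0.0161, edgeR). EPRS1 (chr1:220141942-220219872, minus strand) had 1671 and 1320 counts without stimulation and 1389 and 872 with IFNγ. It stood at 163 and 185 CPM against 135 and 119 CPM, without overlap, and its log2 fold change of -0.45 with a standard error of 0.13 was the smallest to pass (adjusted p = 0.0455, edgeR).

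Whether EPRS1 and LARS1 passed depended on single libraries. EPRS1 did not pass without unstimulated replicate 1 (log2 fold change -0.54, adjusted p = 0.0632), unstimulated replicate 2 (-0.34, 0.187) or IFNγ replicate 2 (-0.38, 0.136). LARS1 did not pass without unstimulated replicate 1 (-0.54, 0.0538) or replicate 2 (-0.49, 0.0567), with all of these from edgeR. IARS1 and NARS1 passed with each library left out in turn. RARS1, the arginyl-tRNA synthetase, had the least repeatable level, with 140 and 154 CPM without stimulation and 171 and 91.8 CPM with IFNγ, so that its groups overlapped.

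Of the 7 listed synthetases of the multisynthetase complex (EPRS1, IARS1, KARS1, LARS1, MARS1, QARS1 and RARS1), 3 fell and none rose, where 11.0% of all tested genes fell, with a median log2 fold change of -0.16. Of these 3, EPRS1 and LARS1 did not pass with a trend of GC content and length removed. Of the 11 cytosolic synthetases outside it, WARS1 left out, 1 fell (NARS1), and the median was 0.09. The difference between the 2 groups was not tested.

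None of the 3 scaffold proteins of the complex passed the test with edgeR, and 1 of them, AIMP1, had an unadjusted p under 0.05. AIMP1 had 584 and 412 counts without stimulation and 460 and 217 with IFNγ, or 56.9 and 57.7 CPM against 44.7 and 29.6 CPM. Both IFNγ libraries were lower but unlike each other, and the log2 fold change of -0.62 had an adjusted p of 0.0661 (edgeR). It passed with DESeq2 (adjusted p = 0.0416), and without IFNγ replicate 1 the value was -0.96 (adjusted p = 0.0046, edgeR). AIMP2 had 209 and 173 counts without stimulation and 257 and 195 with IFNγ, with a log2 fold change of 0.21 (adjusted p = 0.38, edgeR). EEF1E1, the least abundant of the 3, had 83 and 74 counts without stimulation and 62 and 70 with IFNγ, and its groups overlapped (log2 fold change -0.25, adjusted p = 0.572, edgeR).

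Of the 16 mitochondrial synthetases, MARS2 rose (6.25%, against 9.02% of all tested genes), NARS2 fell (6.25%, against 11.0%) and 14 did not pass. The median log2 fold change of the 16 was -0.18, and -0.14 to -0.10 with 1 library left out. Of the 16, 11 were below 0, where 7494 of the 14820 tested genes were. Without MARS2, the other 15 ranged from -0.76 to 0.30 with a median of -0.19. VARS2, for valine, had the highest of these values (0.30) without passing.

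MARS2 stood apart from the other 15 mitochondrial synthetases, a comparison added after its rise had been seen. Its counts were 2.48% and 2.94% of their sum without stimulation, and 8.92% and 9.83% with IFNγ. The relative log2 fold change was 1.79 with a standard error of 0.15 (edgeR, adjusted p = 0.00122), and the exact permutation p was 0.333. Against the 19 cytosolic synthetases, MARS2 went from 0.719% and 0.833% to 2.34% and 2.55% of the summed counts. On this scale the log2 fold change was 1.66 (edgeR, adjusted p = 0.00235).

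Per length, MARS2 was the 14th of the 16 mitochondrial synthetases before stimulation, at 6.65 ± 1.26 RPKM, and the 4th with IFNγ, at 20.5 ± 1.32 RPKM (SD, n = 2). IARS2 had the highest level of the 16 before stimulation, 66.7 RPKM, and SARS2 the lowest, 1.92 RPKM. The median of the 16 was 10.8 RPKM without stimulation and 10.1 RPKM with IFNγ.

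**Figure D3:**
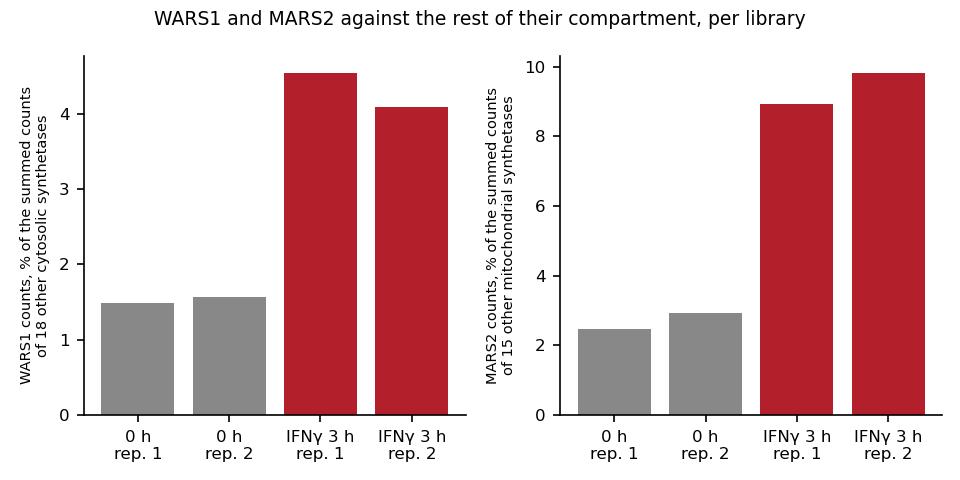
WARS1 counts as a percentage of the summed counts of the 18 other cytosolic synthetases (left) and MARS2 counts as a percentage of those of the 15 other mitochondrial synthetases (right), with 1 bar per library and vertical axes from 0. Grey bars are unstimulated cells at 0 h and red bars IFNγ at 3 h. WARS1 goes from 1.49% and 1.57% to 4.55% and 4.10%, and MARS2 from 2.48% and 2.94% to 8.92% and 9.83%.

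NARS2 (chr11:78146666-78286239, minus strand, GRCh37), the mitochondrial asparaginyl-tRNA synthetase, had 361 and 294 counts without stimulation and 265 and 139 with IFNγ. These were 35.2 and 41.2 CPM, against 25.8 and 19.0 CPM, with both IFNγ libraries lower. The log2 fold change was -0.76 with a standard error of 0.19 (adjusted p = 0.0298, edgeR). Without unstimulated replicate 2 it was -0.63 and did not pass (adjusted p = 0.0698).

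WARS2, which charges tryptophan in the mitochondria, did not share the rise of WARS1. It had 358 and 268 counts without stimulation and 311 and 237 with IFNγ, or 34.9 and 37.5 CPM against 30.3 and 32.3 CPM. The IFNγ libraries were slightly lower without overlap, but the log2 fold change of -0.21 did not pass (adjusted p = 0.322, edgeR). The ratio of WARS1 to WARS2 counts went from 1.02 and 1.13 to 3.63 and 3.10, and that of MARS2 to MARS1, the cytosolic methionyl-tRNA synthetase, from 0.158 and 0.183 to 0.571 and 0.575. The log2 differences of the ratios were 1.64 and 1.75, each with an exact permutation p of 0.333.

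The list gave 17 pairs of a cytosolic and a mitochondrial synthetase for the same amino acid, over 16 amino acids. The 2 log2 fold changes had the same sign in 12 pairs, both negative in 8 and both positive in 4, whether or not they passed the test. They had opposite signs in 5 pairs, among them tryptophan and methionine. The asparagine pair was the one in which both members passed, with -0.77 for NARS1 and -0.76 for NARS2. Across the 17 pairs the Spearman correlation was 0.499, as a description only, since all values come from the same 4 libraries and EPRS1 and FARS2 each enter 2 pairs.

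**Figure D4:**
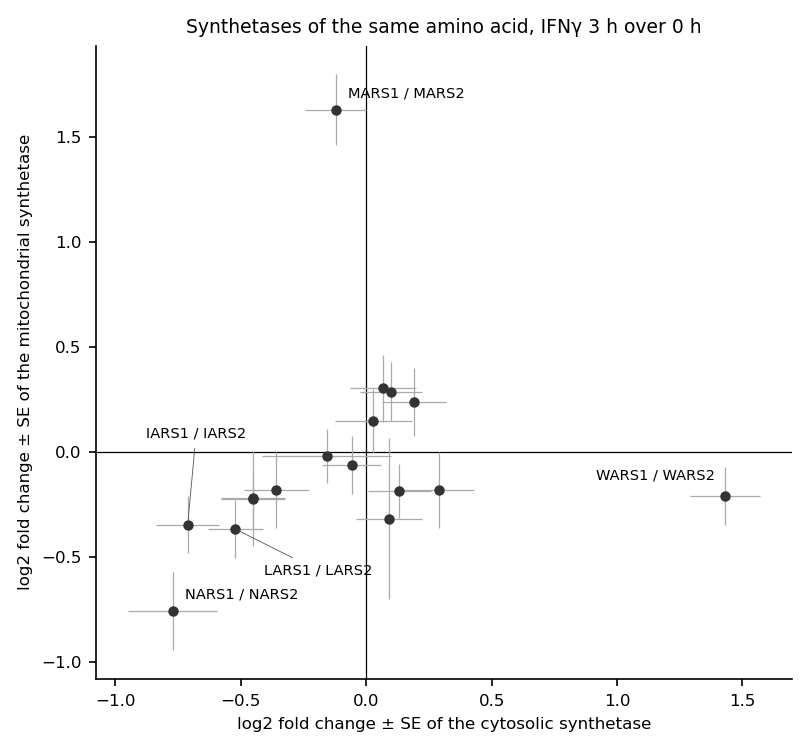
Log2 fold change of the cytosolic synthetase (horizontal axis) against that of the mitochondrial synthetase for the same amino acid (vertical axis), for 17 pairs, with bars of 1 standard error. WARS1 and WARS2 lie far to the right just below 0, MARS1 and MARS2 high at the top just left of 0, and NARS1 and NARS2 at the lower left.

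The 5 members that fell had transcripts in the lower part of the range of GC content. It was 41.7% in NARS1, 43.3% in IARS1, 41.4% in LARS1, 42.3% in EPRS1 and 43.9% in NARS2, and 49.5% in WARS1 and 48.4% in MARS2. The log2 fold change and GC content correlated across the 38 members with a Spearman rho of 0.485, and across 14518 tested genes with a rho of 0.436, both descriptions within the same libraries. With a trend of GC content and length removed from each library, WARS1 kept a log2 fold change of 1.36 (adjusted p = 0.00129) and MARS2 one of 1.60 (0.00141). IARS1 also passed at -0.49 (0.0255) and NARS2 at -0.64 (0.0446).

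EPRS1, LARS1 and NARS1 did not pass after removal of that trend. Their log2 fold changes were then -0.17 (adjusted p = 0.331), -0.21 (0.209) and -0.54 (0.0577), and that of AIMP1 was -0.08 (0.812), all from edgeR. The members that passed were then 4, of which 2 were lower. Across all tested genes, 413 were then called higher and 275 lower, against 427 and 652 with the trend left in. The part of the trend in these results was not tested.

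**Figure D5:**
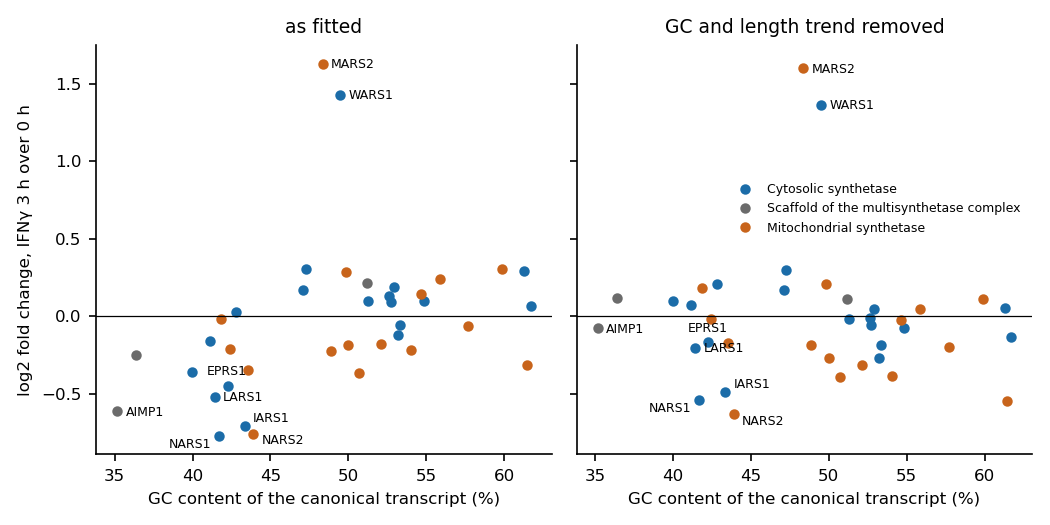
Log2 fold change of the 38 members (vertical axis) against GC content of the canonical transcript in percent (horizontal axis), as fitted (left) and with the trend of GC content and length removed (right). Blue points are cytosolic synthetases, orange points mitochondrial ones and grey points scaffold proteins. WARS1 and MARS2 keep their height in both panels, and EPRS1, LARS1 and AIMP1 move towards 0 in the right one.

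Genes that act around the synthetases were compared through lists. Of 30 known IFNγ-induced genes, 26 were tested. Of these, 20 rose (76.9%, against 9.02% of all tested genes) and none fell, where 11.0% of all tested genes fell. Their median log2 fold change was 1.77. Some of the 26, such as CXCL9, GBP4 and GBP5, had 0 to 2 counts per library without stimulation. They passed the filter on low counts only through their IFNγ libraries, which raises this count and median. The value of WARS1 was below that median, but the median depends on this filter. IRF1 and TAP1, a peptide transporter of antigen presentation, rose by 5.86 and 5.36 on the log2 scale (adjusted p = 7.43e-06 and 5.87e-05, edgeR). NLRC5 had 3 and 1 counts without stimulation and 403 and 132 with IFNγ, and CXCL9 0 and 0 counts and then 22 and 11.

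Of 22 genes of tryptophan breakdown, uptake and sensing, 14 were tested. Of these, 3 rose (21.4%, against 9.02% of all tested genes) and 1 fell (7.14%, against 11.0%). IDO1 was not tested, with 1 and 2 counts without stimulation and 2 and 0 with IFNγ, too few in either condition to give a fold. SLC7A5, the transporter that brings tryptophan and other large neutral amino acids into cells, had 1055 and 682 counts without stimulation and 3449 and 2918 with IFNγ. It rose by 1.89 on the log2 scale (adjusted p = 0.000502, edgeR), and its partner chain SLC3A2 by 0.72 (0.0056). SLC7A8, a related transporter, rose by 0.91 (0.0157), and KYAT3, an enzyme of kynurenine metabolism, fell by 0.60 (0.0418), but did not pass with the GC and length trend removed (-0.28, 0.218). Whether the changes of these genes bear on the rise of WARS1 was not tested.

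Of 14 other genes of tRNA charging, all tested, 1 rose (7.14%, against 9.02% of all tested genes) and 2 fell (14.3%, against 11.0%). YRDC, which makes a modified base next to the anticodon, rose by 1.16 on the log2 scale (adjusted p = 0.00695, edgeR). SEPSECS, of selenocysteine-tRNA synthesis, fell by 1.36 (0.00437), and by 0.83 with the GC and length trend removed (0.0287). Of 9 translation elongation factors, 8 were tested and none passed with edgeR without a replicate block, nor at an unadjusted p under 0.05 in that fit or with DESeq2, with a median log2 fold change of 0.17.

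Of 22 genes of the ATF4 and amino acid response, 21 were tested, with a median log2 fold change of -0.02. Of these, 4 rose (19.0%, against 9.02% of all tested genes) and 4 fell (19.0%, against 11.0%). ATF4 itself had 2171 and 1596 counts without stimulation and 2625 and 2311 with IFNγ, a log2 fold change of 0.39 that did not pass without a replicate block (adjusted p = 0.0789, edgeR). CHAC1, a glutathione-degrading enzyme, rose by 1.78 (0.0155) and ATF3, a stress-induced factor, by 1.73 (0.00235), whereas DDIT4, an inhibitor of mTORC1 signalling, fell by 1.99 (0.000469) and STC2, a secreted glycoprotein, by 1.60 (0.000837). The genes of this list that passed thus moved in both directions.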

How the data were processed

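RNA was extracted from Caco-2 cells and sequenced after TruSeq preparation. The values deposited by the authors are unnormalised read counts for each Ensembl gene and library. The submitters' processing notes name HISAT 0.5.1 and HTSeq 0.6.1p1, while the genome build, annotation and strand setting of counting are not given in the sources used here. Near-identical or overlapping genes are therefore uncertain.

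The 4 libraries were compared with edgeR 4.0.16 in R 4.3.3 (quasi-likelihood test, TMM scaling, filterByExpr, no block), and p-values were adjusted by Benjamini-Hochberg over 14820 genes. A gene was called at an adjusted p under 0.05 if its log2 fold change also exceeded 1 in size. Rose and fell are written of an adjusted p under 0.05. Each standard error was obtained by dividing the log2 fold change by the root of the F statistic. WARS1 and, after its rise was seen, MARS2 were also tested with libraries scaled to the summed counts of a compartment, taken as exact. Depth of 7171455 to 10365346 counts and 2 libraries per condition limit the precision.

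Symbols, GRCh37 coordinates, GC content and canonical transcript lengths came from GENCODE 44, which need not be the annotation used for counting. Promoters came from RefSeq on GRCh38.p14. Named in every library are WARS1, members past the test, the scaffold proteins, WARS2 and the highest and lowest member of each compartment. Listed genes are named for at most 4 past the test per list, plus IRF1, IDO1 and ATF4, and some genes under these rules are not reported here. RARS1, MARS1 and genes at the ends of an order of levels were named after their values were seen. Members and lists were chosen with earlier results of these data known. Alternatives were DESeq2 1.42.0 and its size factors, upper quartile scaling, library size only, no filter, at least 10 counts in every library, a replicate block, removal of a GC and length trend by loess (span 0.5), glmTreat and each library left out. The fits were tested on simulated data.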

Additional observations from a re-analysis of the deposited data

How the results depend on the processing

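WARS1 passed at an adjusted p under 0.05 in all 13 alternatives other than glmTreat (log2 fold change 1.31 to 1.57), as did MARS2 (1.44 to 1.84), IARS1 (-0.81 to -0.49), and the values relative to other synthetases in all 10 alternatives that apply to them. None of the 38 members was called when glmTreat tested against the fold threshold (0, against 2). With the GC and length trend removed, 4 members passed (2 lower), against 7 (5 lower), and 889 of all genes were lower, against 1626. Leaving out 1 library gave 4 to 9 passing members, 2 to 7 of them lower, the fewest without unstimulated replicate 2, and 2 to 4 called members, 0 to 2 of them lower. The 2 called lower, NARS1 (-1.05) and NARS2 (-1.01), appeared without IFNγ replicate 1. With 1 library left out, the median of the other cytosolic synthetases was -0.085 without unstimulated replicate 1 to 0.16 without replicate 2 and so changed sign, and that of the mitochondrial ones -0.14 to -0.10. EEF1E1 (-0.25) changed sign to 0.12 with the trend removed and 0.10 with the trend removed and the block, and ranged from -0.62 to 0.052 with 1 library left out, positive without IFNγ replicate 1. Where other alternatives change whether EPRS1, LARS1, NARS1, NARS2 or AIMP1 passed, the values stand with those genes. The causes were not tested.

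The replicate numbers are not said to mark shared cultures or days, so the report uses no block. Deviations of same-numbered libraries correlated across 14820 genes (r = 0.415). With the replicate number as a block, 13 members passed (4 higher, 9 lower), and across all genes 2596 rose and 2892 fell, against 1337 and 1626. Beside the 7, the block passed KARS1 (0.31, adjusted p = 0.0123, edgeR) and FARSA (0.28, 0.0439) upward and FARSB, IARS2, LARS2 and AIMP1 downward. Among listed genes the text gives as not passing, it passed ATF4 (0.38, 0.00821) and the elongation factors EEF2 (0.23, 0.00649) and EEF1D (0.21, 0.0454). AIMP1 passed with the block (-0.63, 0.0156) and without the filter on low counts (-0.60, 0.00431). With the trend removed as well, WARS1 was 1.37 and MARS2 1.61, and EPRS1 (-0.17, 0.186) and LARS1 (-0.21, 0.0824) did not pass.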
